A study of Rattus norvegicus with 45 samples.

Results

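The genes described here fold proteins in the endoplasmic reticulum (ER), the compartment where secreted and membrane proteins are made, or steer that work. They are Hspa5, Hsp90b1, Hyou1, Dnajc3, Dnajb9, Sdf2l1, Pdia4, Creld2, Manf and Xbp1, 10 of the 14217 genes that have a probe set of their own on the array. Together they have 11 of 20826 such probe sets, since Hyou1 has 2 and each of the other 9 genes has 1. They were taken by gene symbol, and the list was put together with earlier results of these arrays in view, foremost the scores after 6 h of triadimefon. Values at 6 h are therefore given as a description with no test, and tests are given for 24 h and 14 days. Whether the later values also bore on the choice is not recorded.

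When unfolded proteins gather in the ER, the membrane sensors Ire1, Perk and Atf6 start the unfolded protein response. Cleaved Atf6 and the spliced form of Xbp1 then enter the nucleus and bind short promoter elements of chaperone genes. Hepatocytes secrete most plasma proteins, so their ER and its chaperones are abundant.

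Livers came from adult male Sprague-Dawley rats aged 10 weeks. The rats of 9 groups had been given triadimefon at 175 mg/kg/day, myclobutanil at 225 mg/kg/day or neither (controls) by gavage, for 6 h, 24 h or 14 days, with 5 arrays in each group by the titles. Both compounds are triazole fungicides, made to block a fungal enzyme of sterol synthesis. Their doses differ and are stated for the series as a whole, and the labels used here do not say what the controls were given. The counts in the labels conflict: a protocol speaks of 3 rats in each group and the series text of 15 livers against 45 arrays. Arrays that share an animal would not be independent, so the p-values measure the spread between arrays. All groups were whole liver RNA, in which fewer cells of a type and less RNA per cell cannot be told apart.

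Each value is a score, a processed log-type number per probe set and array whose log base the sources used here do not give. A difference of 1 unit is 2-fold on a log2 scale and 2.72-fold on a natural log scale, so differences stay in score units. Array medians lay between -0.012 and 0.033, but the 99th percentiles ran between 2.69 and 3.52, so the bright end was not equal from array to array. The members sit at that end: the means of their main probe sets were at the 91.4th to 99.3rd percentile of all probe sets. Differences are therefore also given after quantile normalization, which makes all arrays share 1 distribution. Hepatocyte markers averaged between 3.61 and 4.74 on every array, and plasma and B cell markers, another secretory cell type, between -0.18 and -0.090.

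A pair of arrays stood apart at 24 h. On triadimefon array 2, all 12 pancreatic acinar markers were above each of the other 44 arrays, with a mean score of 1.28 against at most -0.0051 elsewhere (Amy2a3 2.57, Prss1 1.88). On that array 4 of 10 members lay above the other 4 triadimefon arrays: Hyou1 at 1.30, Dnajc3 at 2.13, Pdia4 at 2.34 and Xbp1 at 2.59. Dnajb9 was below them, at 0.986. The part of the acinar transcripts in the members' scores was not tested. Control array 2 was the brightest of its group, with a 99th percentile of 3.52 against 2.88 for the dimmest. The members' calls with triadimefon against control at 24 h are given with and without each. Most other values at 24 h, and all counts in the lists of related genes, have both arrays in.

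Promoter sequence was looked at because Atf6 and Xbp1 are known to act through it. RefSeq windows of 300 bases, 250 before each annotated start and 50 after it (rat build GRCr8), were found for 9 of the 10 genes; Manf is named only. The ER stress element, ERSE (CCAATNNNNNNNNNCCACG), was searched on both strands and is in 22 of 33469 windows, or 0.0657% of them. It is in the windows of 5 members: Hspa5, Hsp90b1, Creld2, Xbp1 and Dnajc3. The element was itself defined on chaperone promoters such as that of Hspa5, so its presence there is background and not a result. The stretches below are shown to compare the elements and the 9 bases between their conserved ends. Each reads 5′ to 3′ on the strand that carries the motif, with the element in capitals.
Hspa5: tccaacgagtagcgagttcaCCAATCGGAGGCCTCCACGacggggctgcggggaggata
Hsp90b1 far: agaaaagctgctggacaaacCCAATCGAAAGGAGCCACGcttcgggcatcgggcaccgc
Hsp90b1 near: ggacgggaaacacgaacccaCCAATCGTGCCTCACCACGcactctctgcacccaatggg
Creld2: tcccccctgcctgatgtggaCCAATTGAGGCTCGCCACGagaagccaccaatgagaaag
Xbp1: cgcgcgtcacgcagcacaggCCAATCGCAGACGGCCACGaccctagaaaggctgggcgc
Dnajc3: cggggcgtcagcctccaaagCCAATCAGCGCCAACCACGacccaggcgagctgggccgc

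The Hspa5 stretch is chr3:38452953-38453011 on the plus strand, and its element begins 43 bases before the annotated start. The far Hsp90b1 stretch, chr7:23012431-23012489 on the minus strand, has its element 176 bases before the start. The near one, chr7:23012327-23012385 on the plus strand, runs against the gene with its element 72 bases before the start. The Creld2 element also runs against its gene, 145 bases before the start, in chr7:121789219-121789277 on the minus strand. Those of Xbp1 (chr14:84604538-84604596, plus strand) and Dnajc3 (chr15:102432514-102432572, plus strand) begin 65 and 133 bases before their starts.

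Hyou1 lacks that spacing and has the compact form, ERSE-II (ATTGGNCCACG, both strands), at 2 places, 188 and 88 bases before its first annotated start and both against the gene. This motif is in 17 windows, 0.0508% of all. The sites are shown with the motif in capitals, from chr8:53602674-53602724 and chr8:53602774-53602824, both on the minus strand.
Hyou1 far: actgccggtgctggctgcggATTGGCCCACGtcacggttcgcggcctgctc
Hyou1 near: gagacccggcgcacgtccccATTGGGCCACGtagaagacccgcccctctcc

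The octamers TGACGTGG and TGACGTGA, forms of the unfolded protein response element that spliced Xbp1 and Atf6 bind, were searched on both strands as well. They are in 0.595% and 0.4% of windows, and in 1 member each. TGACGTGG is in Hyou1, 191 bases before the start, where it overlaps the far ERSE-II on the opposite strand, and TGACGTGA is in Hspa5, 135 bases before the start. No match to any of the 4 motifs was found in the windows of Pdia4, Sdf2l1 and Dnajb9, which says only that these letters are not there. The whole windows of Hspa5 and of Creld2, the member with the greatest difference at 6 h, are given with all matches in capitals, Hspa5 from chr3:38452766-38453065 and Creld2 from chr7:121789134-121789433, both plus strand.
Hspa5 window: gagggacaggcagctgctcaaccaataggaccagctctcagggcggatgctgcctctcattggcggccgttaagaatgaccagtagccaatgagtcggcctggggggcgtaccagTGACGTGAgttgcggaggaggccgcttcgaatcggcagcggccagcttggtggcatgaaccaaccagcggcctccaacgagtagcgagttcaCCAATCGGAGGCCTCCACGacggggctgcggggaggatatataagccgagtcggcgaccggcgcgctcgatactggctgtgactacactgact
Creld2 window: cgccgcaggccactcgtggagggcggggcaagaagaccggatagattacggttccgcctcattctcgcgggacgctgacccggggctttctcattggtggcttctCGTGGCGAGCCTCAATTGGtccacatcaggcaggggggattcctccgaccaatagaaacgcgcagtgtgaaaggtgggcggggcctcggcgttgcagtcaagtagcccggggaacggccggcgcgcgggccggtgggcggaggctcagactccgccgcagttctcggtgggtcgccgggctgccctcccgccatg

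**Figure D1:**
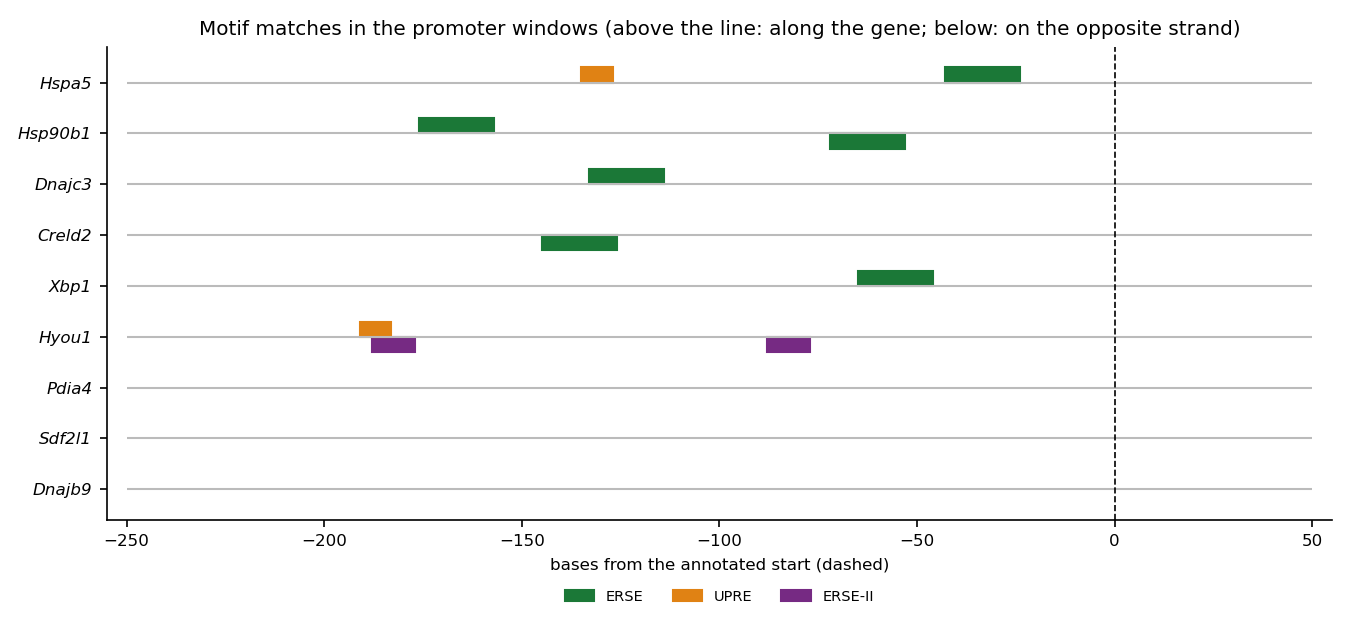
Motif matches in the promoter windows of 9 members, drawn as boxes along 300 bases, with distance in bases from the annotated start on the horizontal axis. ERSE boxes stand on 5 genes, between 176 and 43 bases before the start at their first base, the 2 ERSE-II boxes on Hyou1, and Pdia4, Sdf2l1 and Dnajb9 have none. UPRE stands for the octamers, and boxes above a line run along the gene.

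After 6 h of triadimefon, all 10 members had a higher mean score than in controls, with a median difference of 0.41 where the median over all genes was 0.00061. These scores chose the list, so the direction is no finding. Creld2, Hyou1 and Manf had the greatest differences, at 0.75, 0.55 and 0.54, and Xbp1, Dnajb9 and Dnajc3 the smallest, at 0.18, 0.17 and 0.10. The 5 triadimefon arrays lay above all 5 control arrays for Creld2, Hyou1, Manf, Sdf2l1 and Pdia4, 5 of 10 members, against 2.00% of all genes higher and 0.943% lower. After quantile normalization Hspa5 and Hsp90b1 joined them, 7 of 10 against 2.80% higher and 1.98% lower.

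Hspa5, also called BiP, is the Hsp70 chaperone of the ER lumen and holds the sensors inactive when bound to them. It scored 3.70, 3.41, 3.53, 3.23 and 3.55 on the triadimefon arrays, 3.00, 3.32, 3.04, 3.14 and 3.31 on the myclobutanil arrays, and 2.77, 3.31, 3.34, 2.99 and 3.05 on the control arrays. The lowest triadimefon array was below the 2 highest control arrays, so the groups overlapped. Its difference was 0.39 with triadimefon and 0.070 with myclobutanil, and 0.42 and 0.13 after quantile normalization.

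Hsp90b1, or Grp94, is the Hsp90 chaperone of the ER. Its 5 triadimefon scores were 3.56, 3.18, 3.34, 3.10 and 3.39, its myclobutanil scores 2.72, 2.96, 2.78, 2.97 and 3.08, and its control scores 2.59, 3.06, 3.13, 2.81 and 2.71. Every triadimefon array was above every myclobutanil array, and 1 of them was just below the highest control. The difference from control was 0.45 with triadimefon and 0.040 with myclobutanil.

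Hyou1, the Grp170 chaperone, exchanges the nucleotide bound to Hspa5. On its brighter probe set the triadimefon arrays scored 1.89, 1.52, 1.48, 1.54 and 1.53, the myclobutanil arrays 1.04, 1.22, 1.14, 1.17 and 1.23, and the control arrays 1.001, 0.96, 1.18, 1.02 and 1.04. Triadimefon array 1 stood well above the other 4, and none of the 5 overlapped either other group. The difference from control was 0.55, and 0.35 on the dimmer probe set, where the groups did not overlap either. With myclobutanil these were 0.12 and 0.052.

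Creld2, a secreted protein with disulfide isomerase activity whose exact task is still debated, had the greatest difference of the list. Its scores were 2.22, 1.71, 1.72, 1.66 and 1.65 on the triadimefon arrays, 1.002, 1.18, 1.11, 0.999 and 1.23 on the myclobutanil arrays, and 1.03, 1.04, 0.97, 1.06 and 1.09 on the control arrays. No triadimefon array came near the other 2 groups, which lay among each other. The triadimefon difference of 0.75 ran between 0.64 and 0.79 when any 1 array was left out, and the myclobutanil difference was 0.065.

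Manf, a small protein retained in the ER lumen and secreted under stress, averaged 2.82 ± 0.17 with triadimefon, 2.48 ± 0.11 with myclobutanil and 2.28 ± 0.11 in controls (SD, n = 5 each). Its triadimefon scores, 2.60 to 3.06, were all above the control range of 2.11 to 2.39. The myclobutanil arrays also lay above the control mean, 5 of 5, with a difference of 0.19, and apart from the controls once quantile normalized.

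Sdf2l1 works in a complex with Hspa5 and its J-protein cofactors. It averaged 2.06 ± 0.22 with triadimefon, 1.63 ± 0.15 with myclobutanil and 1.63 ± 0.042 in controls, and the triadimefon arrays overlapped neither other group. Pdia4, a disulfide isomerase that forms and rearranges bonds between cysteines, averaged 2.63 ± 0.10, 2.23 ± 0.11 and 2.26 ± 0.15 in that order (SD, n = 5 each). Its triadimefon arrays were likewise clear of both.

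Dnajb9, Dnajc3 and Xbp1 had the smallest triadimefon differences. Dnajc3 (P58IPK), an ER J-protein, averaged 2.35 ± 0.12 with triadimefon, 2.21 ± 0.10 with myclobutanil and 2.25 ± 0.11 in controls, with overlapping ranges. Dnajb9 (ERdj4), a J-protein that brings Hspa5 to Ire1, scored 1.48, 1.53, 1.54, 1.26 and 1.61 with triadimefon. Its myclobutanil scores were 1.47, 1.79, 1.74, 1.78 and 1.42, and its control scores 1.32, 1.38, 1.26, 1.29 and 1.30. Here the myclobutanil mean was highest and its arrays were clear of the controls, while myclobutanil and triadimefon arrays overlapped. The difference from control was 0.33 with myclobutanil and 0.17 with triadimefon.

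Xbp1, the transcription factor whose mRNA Ire1 splices, followed the same order. It averaged 2.57 ± 0.088 with triadimefon, 2.75 ± 0.17 with myclobutanil and 2.39 ± 0.27 in controls (SD, n = 5 each), differences of 0.18 and 0.36. A 3′ array score is the sum of spliced and unspliced forms, so splicing was not measured. Dnajb9 was the 1 member whose myclobutanil arrays did not overlap the controls, 1 of 10 against 0.943% of all genes higher and 0.837% lower. After quantile normalization Manf and Hspa5 joined it, 3 of 10 against 1.72% higher and 1.39% lower.

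Triadimefon and myclobutanil arrays at 6 h did not overlap for Creld2, Hyou1, Hsp90b1, Sdf2l1 and Pdia4, 5 of 10 members, triadimefon the higher, against 1.80% of all genes higher and 0.401% lower. After quantile normalization there were 7 of 10, against 1.81% higher and 1.17% lower. Dnajb9 and Xbp1 ran the other way, with triadimefon minus myclobutanil at -0.16 and -0.18 and all 5 triadimefon arrays below the myclobutanil mean. The doses were 175 and 225 mg/kg/day, so these values do not compare the compounds at 1 dose. Array file names end in 12 on 3 triadimefon and 3 myclobutanil arrays of 6 h and on 0 controls. Of the 6 h controls 1 ends in 21 and 1 in 31, the only arrays with those endings. What the ending stands for is not given in the sources used here. Over arrays ending in 11 alone, 2 triadimefon against 3 control arrays, the triadimefon differences of the 10 members were 0.13 to 0.59, all above 0. These scores are among those that chose the list, and the part of the ending was not tested.

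**Figure D2:**
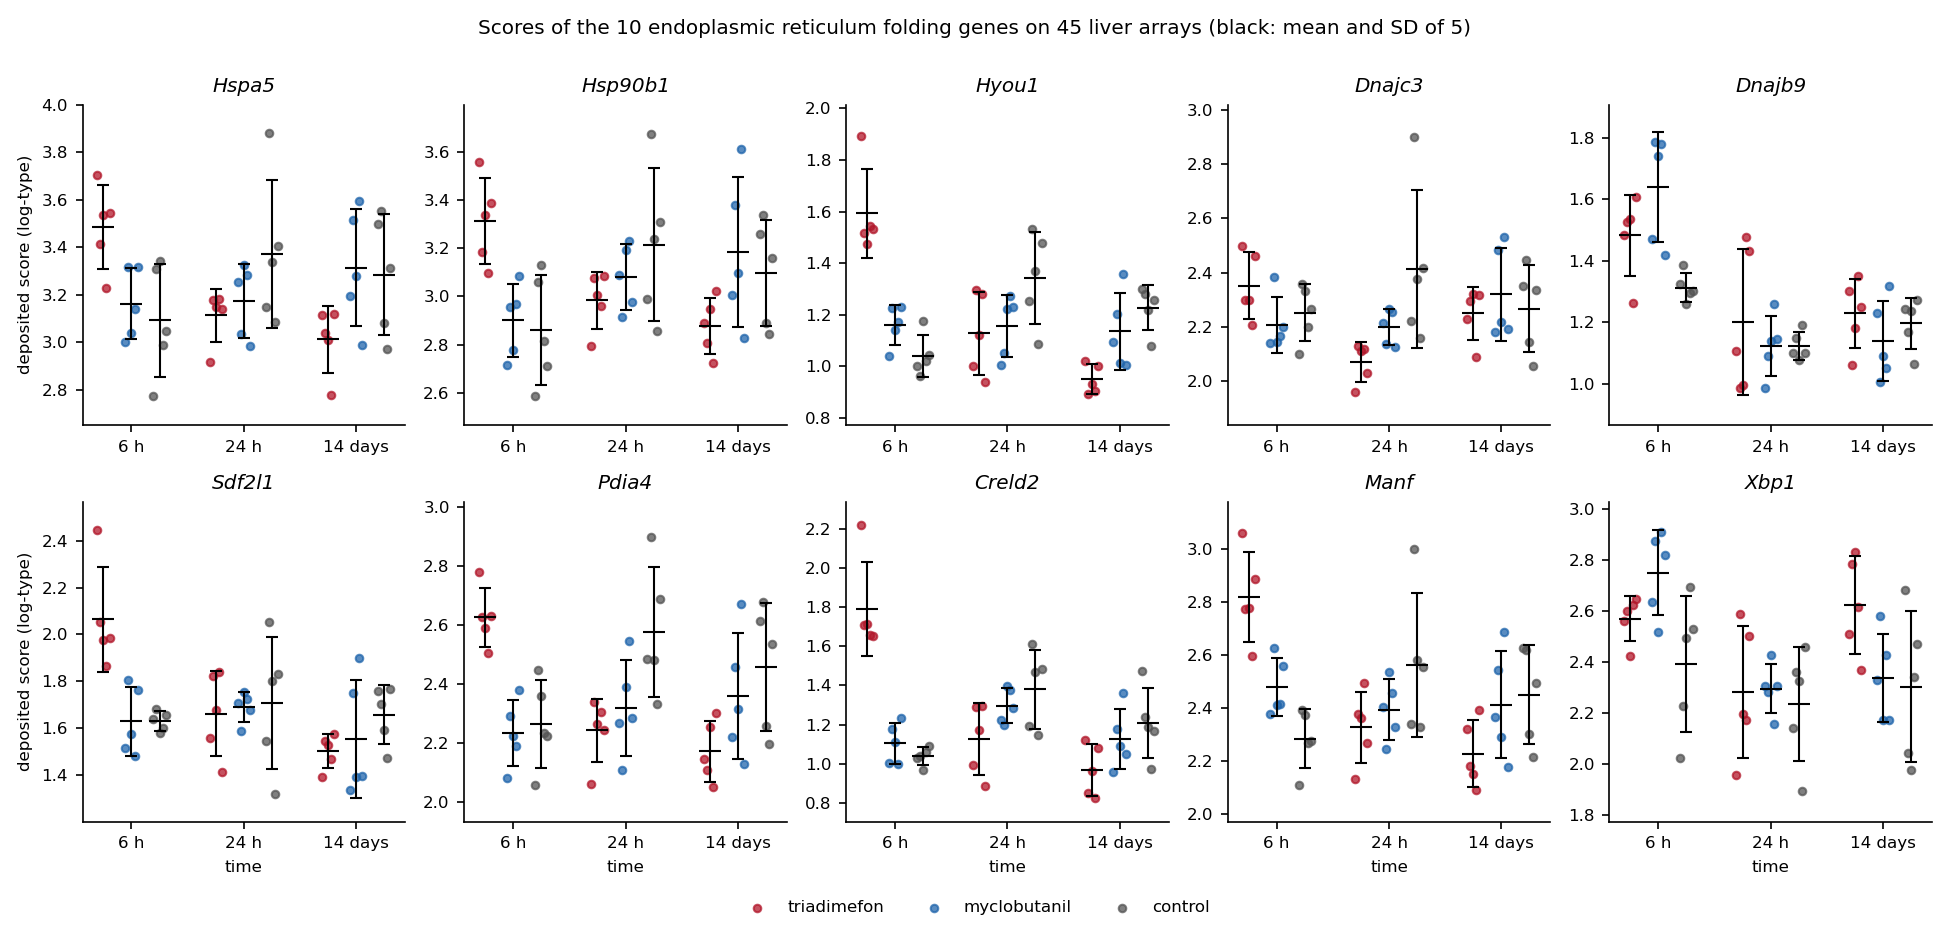
Deposited score (log-type) of each member on every array, in 10 panels, with triadimefon, myclobutanil and control arrays side by side at 6 h, 24 h and 14 days. Points are arrays and black marks the mean and SD of 5; at 6 h the triadimefon points of Creld2 (1.65 to 2.22) stand apart, and the Dnajb9 panel has its highest points in the myclobutanil group.

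At 24 h the list no longer stood above the controls. With triadimefon 8 of 10 members had a mean below control and 2 passed the test as lower, Dnajc3 and Pdia4, against 8.31% of all genes lower and 2.60% higher, so 2 of 10 is not far from the background. At an unadjusted p under 0.05, 6 of 10 were lower, against 19.6% of all genes lower and 7.91% higher. Members had a median difference of -0.23, and the 796 genes with a mean score over 2, as bright as most members, had one of -0.17. After quantile normalization the bright genes' median was -0.024 and the members' -0.094, and the same 2 members passed, against 6.34% lower and 5.89% higher.

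Dnajc3 scored 1.96, 2.13, 2.11, 2.12 and 2.03 on the triadimefon arrays, 2.21, 2.14, 2.27, 2.25 and 2.12 on the myclobutanil arrays, and 2.22, 2.90, 2.38, 2.16 and 2.42 on the control arrays. All triadimefon arrays lay below all controls, of which array 2 was far the highest, and this was so for 1 of 10 members against 5.23% of all genes lower and 1.86% higher. The difference was -0.34 ± 0.090 (SE; limma adjusted p = 0.012), and -0.19 after quantile normalization (limma adjusted p = 0.00053).

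Pdia4 scored 2.06, 2.34, 2.27, 2.30 and 2.25 with triadimefon, 2.27, 2.11, 2.39, 2.54 and 2.28 with myclobutanil, and 2.48, 2.90, 2.48, 2.33 and 2.69 in controls. The highest triadimefon array just reached the lowest control. It fell by 0.33 ± 0.098 (SE; limma adjusted p = 0.027), and by 0.19 after quantile normalization (limma adjusted p = 0.015).

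Without control array 2, neither Dnajc3 nor Pdia4 passed on the deposited scores, and after quantile normalization both still did. Without triadimefon array 2, the one with acinar transcripts, both passed and Hyou1 did too, at -0.26 (limma adjusted p = 0.047), while after quantile normalization the count was 2. Without triadimefon array 1 or control array 5 Pdia4 no longer passed and Dnajc3 did, and without control array 4 the count was 4.

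The remaining members gave no call at 24 h with triadimefon. Creld2 differed by -0.25 (95% interval -0.45 to -0.059, limma adjusted p = 0.098), Hyou1 by -0.22, Manf by -0.23, Hspa5 by -0.26 and Hsp90b1 by -0.23, and all 5 triadimefon arrays were below the control mean for each. After quantile normalization the differences were -0.16 for Creld2, -0.13 for Hyou1, -0.088 for Manf, -0.10 for Hspa5 and -0.064 for Hsp90b1, and none of them passed. On its dimmer probe set Hyou1 did pass, with -0.16 (limma adjusted p = 0.013). Sdf2l1 was at -0.047, and at 0.081 after quantile normalization, so its direction depends on the scaling. Dnajb9 split into 2 triadimefon arrays at 1.43 and 1.48 and 3 between 0.99 and 1.11, against 1.08 to 1.19 in controls. Its mean difference was 0.076, or 0.15 after quantile normalization. Xbp1 was at 0.048, at 0.17 after quantile normalization, and at -0.028 without triadimefon array 2.

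With myclobutanil at 24 h, 0 of 10 members passed limma's test on their main probe set, against 6.86% of all genes lower and 3.92% higher. After quantile normalization it was again 0 of 10, against 6.03% lower and 8.24% higher. At an unadjusted p under 0.05, 3 were lower, Hyou1, Dnajc3 and Pdia4, against 17.7% of all genes lower and 7.95% higher. The dimmer Hyou1 probe set fell by 0.17 (limma adjusted p = 0.0065; 0.14 and 0.0082 after quantile normalization), with 0.38, 0.37, 0.43, 0.47 and 0.41 on the myclobutanil arrays and 0.47, 0.75, 0.61, 0.42 and 0.67 on the controls. Pdia4 was at -0.26 (limma adjusted p = 0.095), and Hsp90b1 at -0.13, or 0.031 after quantile normalization, a change of sign. All 9 measured Kupffer cell markers fell in these livers, between -0.22 for Cd163 and -0.79 for Clec4f, and their part in the members' scores was not tested.

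Between the compounds at 24 h, 0 of 10 members passed limma's test and 0 had an unadjusted p under 0.05, where 1.22% of all genes passed as lower with triadimefon and 0.443% as higher, and 8.38% and 5.12% had such an unadjusted p. The doses differed here too. The differences ran between -0.17 for Creld2 and 0.076 for Dnajb9. For Creld2 the 95% interval of triadimefon minus myclobutanil was -0.36 to 0.026.

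By 14 days of triadimefon Hyou1 alone passed on the deposited scores, as lower, against 2.74% of all genes lower and 5.49% higher. Its main probe set scored 1.02, 0.89, 0.93, 0.91 and 1.003 with triadimefon, 1.10, 1.20, 1.01, 1.36 and 1.004 with myclobutanil, and 1.30, 1.28, 1.22, 1.08 and 1.26 in controls. Triadimefon and control arrays did not overlap, in 1 of 10 members against 2.96% of all genes lower and 6.62% higher. The myclobutanil arrays spanned both. The difference was -0.28 ± 0.078 (SE; limma adjusted p = 0.026). It did not pass without control array 1, 2 or 5 or triadimefon array 2 or 4, with limma adjusted p-values up to 0.069. At an unadjusted p under 0.05, 5 members were lower and 1 higher, against 11.4% of all genes lower and 14.7% higher. The dimmer probe set was also apart from controls, at -0.23 (limma adjusted p = 0.00073).

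After quantile normalization 6 of 10 members passed as lower at 14 days, against 5.39% of all genes lower and 5.96% higher. They were Creld2 at -0.30, Hyou1 at -0.33, Manf at -0.23, Hspa5 at -0.25, Hsp90b1 at -0.21 and Pdia4 at -0.30, with limma adjusted p-values of 0.016, 0.00096, 0.0041, 0.00031, 0.0051 and 0.00019. The deposited differences of these genes were -0.22 to -0.29. The SD within groups was smaller on the quantile scale, by different amounts: arrays of a group had an SD of 0.21 in the deposited Hspa5 scores and one of 0.074 once quantile normalized, while for Creld2 these were 0.16 and 0.13. The bright genes' median difference was near 0 on both scales, -0.0024 and -0.0080. With any 1 control or triadimefon array of 14 days left out after quantile normalization, 5 to 7 members passed, a check chosen after seeing the data.

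In Hspa5 the 14-day scores were 3.11, 3.04, 3.01, 2.78 and 3.12 with triadimefon, 3.20, 3.52, 3.28, 3.59 and 2.99 with myclobutanil, and 3.50, 3.55, 3.08, 2.97 and 3.31 in controls. Triadimefon array 4 lay below every control and the other 4 within the control range. Creld2 scored 1.12, 0.85, 0.96, 0.82 and 1.08 with triadimefon, 0.96, 1.18, 1.09, 1.36 and 1.05 with myclobutanil, and 1.47, 1.24, 1.19, 0.98 and 1.17 in controls. All 5 triadimefon arrays were below the control mean in both genes.

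Xbp1 had the opposite sign at 14 days. It scored 2.51, 2.79, 2.83, 2.61 and 2.37 with triadimefon, 2.33, 2.58, 2.17, 2.43 and 2.17 with myclobutanil, and 2.68, 2.04, 1.97, 2.34 and 2.47 in controls. The controls were widely spread, with arrays 1 and 5 inside the triadimefon range. The difference was 0.32 (95% interval 0.065 to 0.57, limma adjusted p = 0.11), and 0.42 without control array 1 (limma adjusted p = 0.046), the 1 array of these 10 whose removal gave a call. Dnajc3, at -0.016, and Dnajb9, at 0.032, or -0.024 after quantile normalization, did not pass.

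With myclobutanil at 14 days 0 of 10 members passed limma's test and 0 had an unadjusted p under 0.05, where 1.12% of all genes passed as higher and 0.0703% as lower, and 13.7% and 2.51% had such an unadjusted p. Differences lay between -0.10 and 0.087. The dimmer Hyou1 probe set was at -0.13 (limma adjusted p = 0.15, unadjusted p = 0.0047), and passed after quantile normalization at -0.16 (limma adjusted p = 0.028). After quantile normalization all 10 members were below 0 and Pdia4 passed at -0.21 (limma adjusted p = 0.029), 1 of 10 against 0.556% lower and 1.02% higher, so Hspa5, Hsp90b1, Dnajc3 and Xbp1 changed sign with the scaling.

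Between the compounds at 14 days, 0 of 10 passed limma's test, against 0.204% of all genes higher and 0.197% lower with triadimefon. At an unadjusted p under 0.05, Hyou1, Hspa5 and Hsp90b1 were lower with triadimefon, against 9.47% of all genes, and Xbp1 was higher, against 3.83%. The doses differed. Hspa5 differed by -0.30 (95% interval -0.56 to -0.049) and by -0.14 after quantile normalization.

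**Figure D3:**
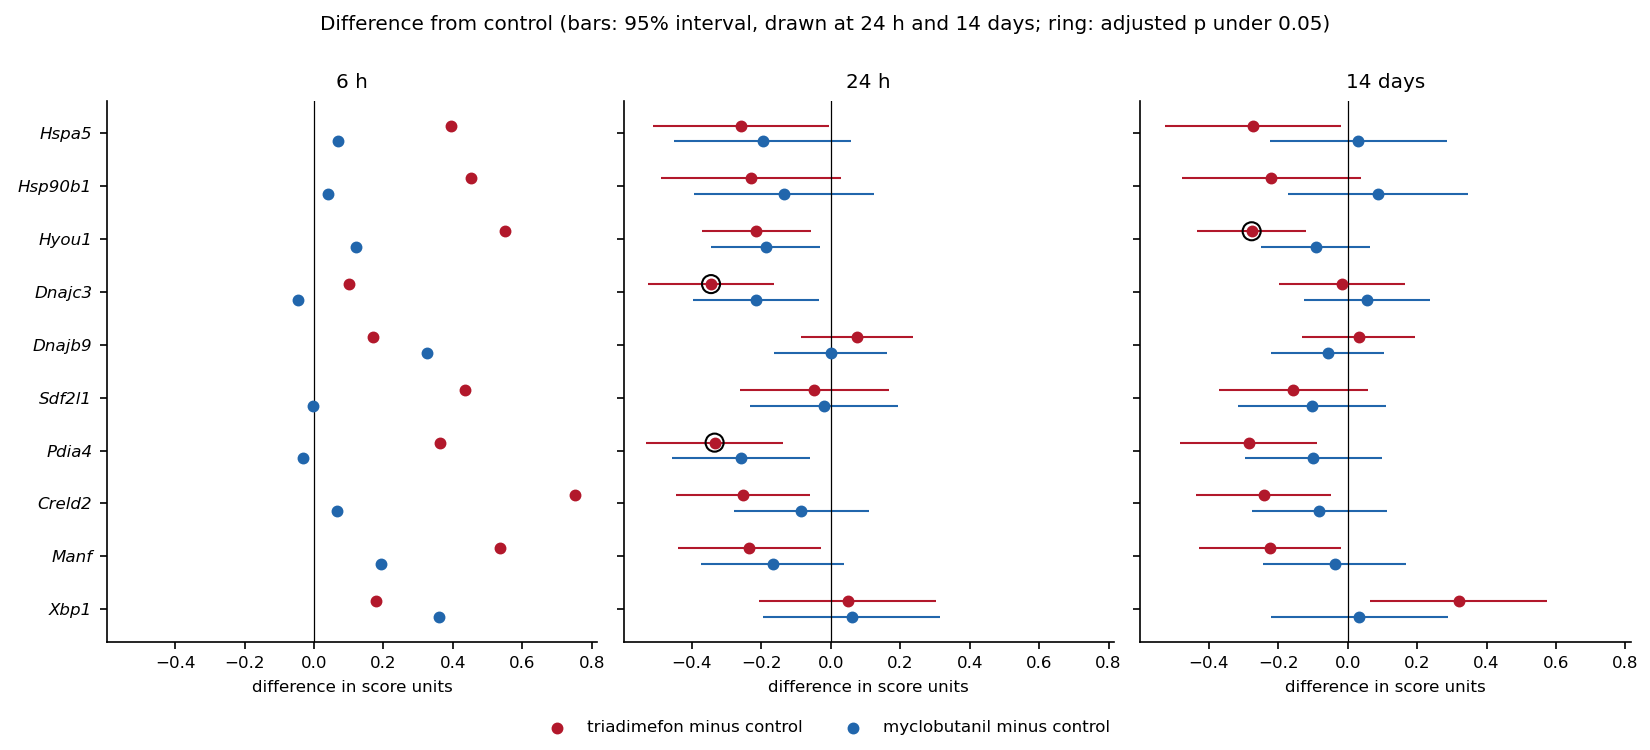
Difference from control in score units for triadimefon and myclobutanil at 6 h, 24 h and 14 days, with 95% intervals at the 2 later times and a ring where the limma adjusted p was under 0.05. Triadimefon points lie right of 0 at 6 h (0.10 to 0.75), and rings mark Dnajc3 and Pdia4 at 24 h and Hyou1 at 14 days.

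**Figure D4:**
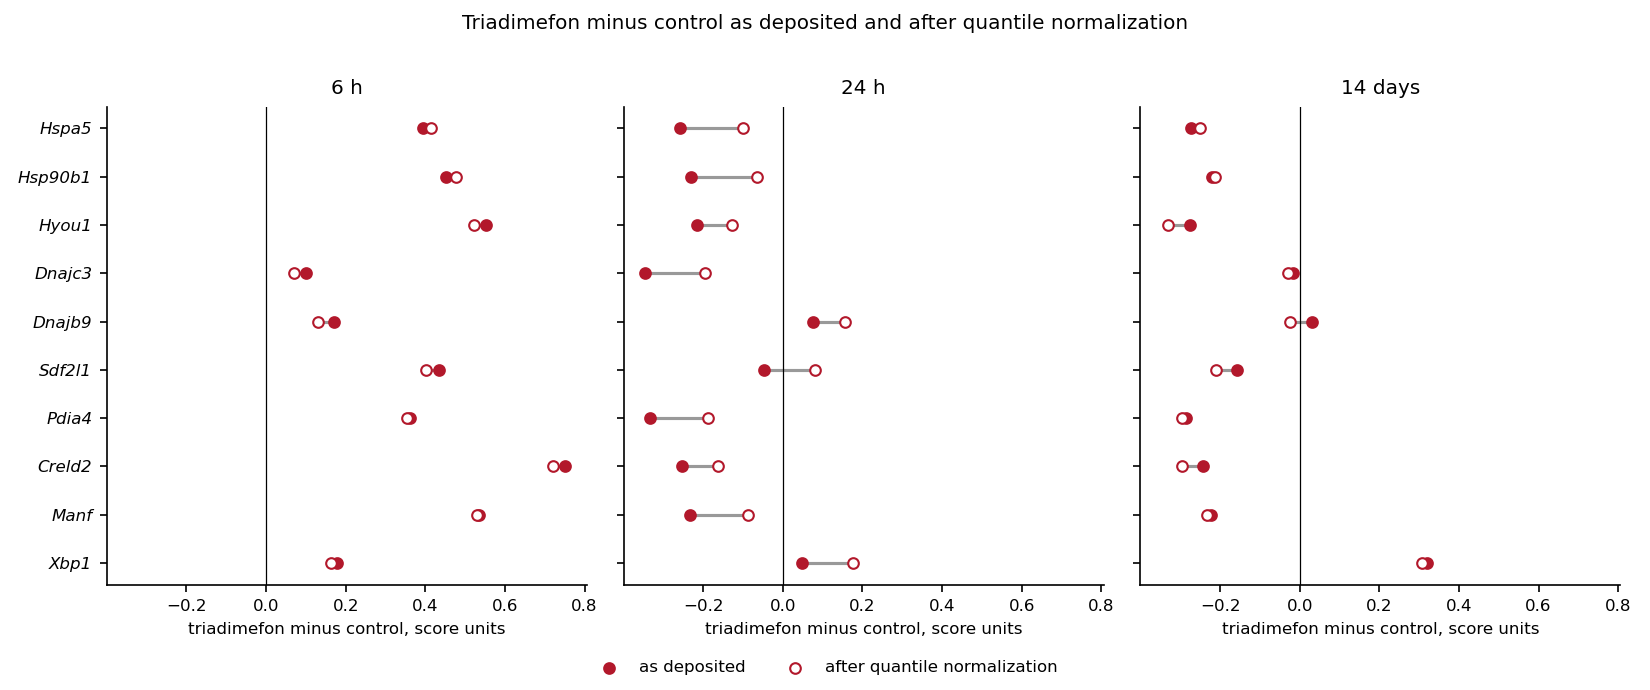
Triadimefon minus control in score units for each member, as deposited (filled) and after quantile normalization (open), at 6 h, 24 h and 14 days. The pairs lie closer at 6 h and 14 days than at 24 h, where Pdia4 is at -0.33 and -0.19 and Sdf2l1 changes sign. At 14 days Dnajb9 changes sign, at 0.032 as deposited and -0.024 after quantile normalization.

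Between 24 h and 14 days the controls gave no call, with 0 of 10 members passing limma's test, against 0.0422% of all genes higher and 0.288% lower. At an unadjusted p under 0.05 there were 0 of 10, against 5.78% higher and 17.6% lower. The 6 h controls bore on the choice of members and were not tested. The members' mean over control arrays was 2.02 at 6 h, 2.19 at 24 h and 2.11 at 14 days. After quantile normalization it was 2.04, 2.12 and 2.14. Creld2 controls averaged 1.04, 1.38 and 1.21 in that order, while Dnajb9 (1.31, 1.12 and 1.20) and Xbp1 (2.39, 2.23 and 2.30) were highest at 6 h. The triadimefon effect at 14 days minus that at 24 h gave 0 of 10, against 11.3% higher and 4.34% lower, and 1 at an unadjusted p under 0.05, Dnajc3, against 22.3% higher and 12.3% lower. Dnajc3 had a difference of 0.33 (limma adjusted p = 0.077), and passed after quantile normalization at 0.17 (limma adjusted p = 0.036), 1 of 10 against 7.21% higher and 6.39% lower. For myclobutanil the same difference gave 0 of 10, against 5.01% higher and 1.51% lower, and again Dnajc3 alone had an unadjusted p under 0.05, against 21.5% higher and 4.87% lower. Both differences share their controls with the comparisons above.

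The members did not all vary together over the 45 arrays. Each of 8 followed the mean of the other members with a Pearson r of 0.73 to 0.97, highest for Manf, while Dnajb9 was at 0.14 and Xbp1 at 0.19. These points share their arrays and their brightness, and the 6 h scores that chose the list are among them, so the values are descriptions. Within groups, after removing group means, the same 8 were at 0.76 to 0.94 as deposited and at 0.58 to 0.81 once quantile normalized. Dnajb9 was then at -0.049 and Xbp1 at 0.36 as deposited, and at -0.21 and -0.082 once quantile normalized. On the deposited scores the pair most alike was Hspa5 and Hsp90b1, with r = 0.95, and Creld2 and Hyou1 followed at 0.94. After quantile normalization it was Manf and Hspa5, at 0.96, and Hspa5 with Hsp90b1 was at 0.86.

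Among genes outside the list, those most like the members' mean were Kdelr2 (r = 0.89), a receptor that returns escaped chaperones to the ER, Slc35b1 (0.89), an ER nucleotide transporter, Cdk2ap2 (0.89), Ssr3 (0.89), a translocon subunit, Serp1 (0.87), Dnajb11 (0.87), an ER J-protein, and the coatomer subunits Copa (0.87) and Arcn1 (0.86), all over 45 arrays. After quantile normalization 5 of these 8 were again among the 8 most alike. Most like Creld2 were Hyou1 (0.94), Dnajb11 (0.91) and Slc35b1 (0.89). At 6 h triadimefon minus control was 0.46 for Cdk2ap2, 0.41 for Slc35b1, 0.36 for Dnajb11 and 0.25 for Kdelr2. The 45 arrays that ranked these genes include those of 6 h that chose the list. A rise at 6 h is thus partly built into the ranking and is no finding.

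Genes outside the list that hold an ERSE were found by sequence alone. There are 16, of which 12 were measured. Their median triadimefon difference at 6 h was 0.013, where the median over all genes was 0.00061. Of the 12, 10 were above 0, some barely, such as Pan2 at 0.00026 and Birc5 at 0.0013. Among them 0 were clear of the controls upward. Over all genes 2.00% were clear upward. The lectin chaperones Calr and Canx were at 0.18 and 0.11 and the oxidase Ero1b at 0.23, while the other 9 lay between -0.0094 and 0.087. The 5 members with the element ran between 0.10 (Dnajc3) and 0.75 (Creld2), and the 3 with no match to any motif, Sdf2l1, Pdia4 and Dnajb9, were at 0.43, 0.36 and 0.17. Members were chosen with these 6 h scores in view, so their values cannot be compared with those of genes found by sequence. Of 10 measured genes outside the list with ERSE-II, 4 were above 0 and 1 was clear of the controls upward, and the median was -0.015. The clear one was Dnajb11 at 0.36. Ggct, at 0.38, overlapped the controls, and Herpud1 was at -0.063, or -0.086 after quantile normalization.

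Related genes were taken from lists drawn up with earlier results in view. Of 31 other ER folding and translocation genes, 6 were clear of controls upward at 6 h with triadimefon, with a median difference of 0.11. Over all genes 2.00% were clear upward and 0.943% downward. The highest of the list were Dnajb11 at 0.36, Txndc5, a disulfide isomerase, at 0.30, and, overlapping, Pdia5 at 0.28. At 24 h 11 of 31 fell and 0 rose by limma's test, against 8.31% of all genes lower and 2.60% higher. After quantile normalization 9 fell and 0 rose, against 6.34% lower and 5.89% higher. The list's medians were -0.20 as deposited and -0.061 after quantile normalization. Of the 11, those furthest down were Ppib at -0.36, Sec63 at -0.34, Sec61g at -0.30 and Spcs3 at -0.28. They take part in peptide folding, translocation and signal peptide removal. With myclobutanil 4 of 31 fell and 0 rose at 24 h, against 6.86% of all genes lower and 3.92% higher, among them Pdia5 by 0.61 and Sec63 by 0.23. After quantile normalization 5 fell and 2 rose, against 6.03% and 8.24%. At 14 days with triadimefon 1 of 31 rose and 0 fell, against 5.49% of all genes higher and 2.74% lower. The gene that rose was Sil1, another exchange factor of Hspa5, by 0.15. After quantile normalization 4 fell and 1 rose, against 5.39% lower and 5.96% higher.

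ER-associated degradation, which returns misfolded proteins to the cytosol, had 16 measured genes. At 6 h with triadimefon 1 of 16 was clear of controls upward, against 2.00% of all genes, and the list's median was 0.080. The greatest differences were in genes that overlapped the controls, Edem1 at 0.31, Ubxn4 at 0.29 and Syvn1 at 0.20. At 24 h 4 of 16 fell and 0 rose, against 8.31% of all genes lower and 2.60% higher. They were Derl2 by 0.42, Erlin1 by 0.22, Derl1 by 0.21 and Erlec1 by 0.17. After quantile normalization Derl2 alone fell, by 0.29, against 6.34% of all genes lower. Derl2 also fell with myclobutanil, by 0.42, as 1 of 16 against 6.86% of all genes lower. There 1 fell and 2 rose after quantile normalization, against 6.03% lower and 8.24% higher. At 14 days of triadimefon Erlec1 rose by 0.21 and Edem2 by 0.15, 2 of 16 against 5.49% of all genes higher. After quantile normalization 2 rose and 1 fell, against 5.96% higher and 5.39% lower.

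Sensors and proteases of the response, 7 measured, had no gene clear of the controls at 6 h, with Atf6 at 0.097 and Atf6b at 0.093. At 24 h 0 passed limma's test with either compound on the deposited scores. After quantile normalization 2 rose with triadimefon, against 5.89% of all genes higher, and 0 with myclobutanil. At 14 days of triadimefon 2 of 7 rose, against 5.49% of all genes higher, and 2 after quantile normalization, against 5.96%. They were Eif2ak3, which encodes Perk, by 0.15 as deposited, and Mbtps1, the protease that cleaves Atf6, by 0.12. Of 25 genes of the Perk and amino acid response, 1 was clear of controls upward at 6 h and 2 downward. The shares of all genes were 2.00% and 0.943%. In this list the greatest differences were in genes that overlapped the controls, Nars1 at 0.19, Aars1 at 0.18 and Nupr1 at -0.17. At 24 h 5 fell and 0 rose with triadimefon, against 8.31% of all genes lower and 2.60% higher, led by Nupr1 at -0.72 and Gpt2 at -0.51. After quantile normalization 3 fell and 1 rose, against 6.34% of all genes lower and 5.89% higher. With myclobutanil at 24 h 4 fell and 2 rose, against 6.86% lower and 3.92% higher, with Nupr1 at -0.59 and Gpt2 at -0.50. Once quantile normalized 3 fell and 3 rose there, against 6.03% lower and 8.24% higher. At 14 days of triadimefon 4 rose and 0 fell, against 5.49% higher and 2.74% lower. Once quantile normalized 3 rose and 1 fell, against 5.96% higher and 5.39% lower. Those that rose as deposited were the transporter subunit Slc3a2 by 0.39, asparagine synthetase Asns by 0.31, Psat1 of serine synthesis by 0.29 and Eif4ebp1 by 0.12, the last not after quantile normalization.

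The cytosolic heat shock genes, chaperones of another compartment, had 15 measured members. At 6 h with triadimefon 5 were clear of controls upward, against 2.00% of all genes higher and 0.943% lower. The 3 furthest were Hsph1 at 0.62, Hspa1a at 0.40 and Stip1 at 0.36, and the list's median was 0.25. At 24 h the list gave 3 calls upward and 0 downward with triadimefon, against 2.60% of all genes higher. These were Dnajb1 by 0.33, Hsph1 by 0.32 and Chordc1 by 0.30. With myclobutanil 5 of 15 rose, against 3.92%, Hsph1 by 0.43 and Chordc1 by 0.35 foremost. After quantile normalization these counts were 8 with triadimefon and 13 with myclobutanil, against 5.89% and 8.24% of all genes higher. At 14 days 1 fell with triadimefon, Fkbp4 by 0.31, against 2.74% of all genes lower, and 2 after quantile normalization, against 5.39%.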

How the data were processed

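Liver RNA on 45 Affymetrix Rat Genome 230 2.0 arrays was analysed from the deposited table of scores, 1 processed log-type score per probe set and array. Per the labels' protocols, biotin-labelled cRNA was hybridized. The authors' summary, background and normalization steps and the log base are not given in the sources used here, and the values were used as deposited. Arrays have no read depth, and their number limits the precision. The 57 control probe sets were left out and 31042 tested. The platform annotation names 1 gene for 20826 of them, several for 436 and none for 9780; RefSeq (GRCr8) changed 0 symbols. The probe set with the highest mean score stands for a gene.

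limma 3.58.1 in R 4.3.3 was fitted with 1 mean per group over all 45 arrays. Benjamini-Hochberg adjustment ran over all probe sets, with a threshold of 0.05. Named genes are all members, per list up to 4 called genes of largest difference in a tested comparison (the text gives part of them) and the 3 largest at 6 h, and the 8 and 3 genes most like the members and Creld2. ERSE genes were named by sequence. Members and lists were chosen with earlier results of these data known. The code was tested on simulated scores. Samples sharing a number were not paired by the labels or the data. Alternatives are quantile normalization, other fits, file-name endings, thresholds and each array left out.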

Additional observations from a re-analysis of the deposited data

Results flagged for a closer look

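Among 99 combinations of a member probe set with a group, 4 had an array far from the other 4 by Dixon's criterion for 5 values, which chance gives in about 1 of 20 such groups. Triadimefon array 1 of 6 h was highest for Creld2 (2.22 against 1.65 to 1.72) and for Hyou1 (1.89 against 1.48 to 1.54). Hspa5 on triadimefon array 1 of 24 h was lowest (2.92 against 3.14 to 3.18), and Dnajc3 on myclobutanil array 2 of 6 h highest (2.38 against 2.14 to 2.20).

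For several members every treated array lay above the control mean at 6 h and every one below it at a later time. These differences between times were not tested, since values at 6 h chose the members. The triadimefon effect at 24 h minus that at 6 h was -1.004 for Creld2, -0.77 for both Hyou1 and Manf (Hyou1 -0.767, Manf -0.769), -0.65 for Hspa5, -0.68 for Hsp90b1 and -0.70 for Pdia4. At 14 days minus 6 h it was -0.99 for Creld2, -0.83 for Hyou1, -0.76 for Manf, -0.67 for both Hspa5 and Hsp90b1 (Hspa5 -0.666, Hsp90b1 -0.672), -0.59 for Sdf2l1 and -0.65 for Pdia4. The myclobutanil effect on Manf at 24 h minus that at 6 h was -0.36. All of these differences also hold the change in the controls between the times. Creld2 controls averaged 1.04 at 6 h, 1.38 at 24 h and 1.21 at 14 days, and triadimefon arrays 1.79, 1.13 and 0.97. For Hyou1 the means were 1.04, 1.34 and 1.23 in controls and 1.59, 1.13 and 0.95 with triadimefon.

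Outside the members, the mean score of 12 pancreatic acinar markers was 1.28 on triadimefon array 2 of 24 h and -0.13 to -0.0051 on the other 44 arrays.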

How the results depend on the processing

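No result changed sign past the threshold under any alternative. For triadimefon at 24 h, 2 members were called: 1 in a fit without the 6 h arrays, 0 with only the groups compared or at an adjusted p under 0.01, and 0 to 4 with each array left out in turn. Quantile normalization gave 2, but 1 with control array 5 also left out. For triadimefon at 14 days, 1 was called: 6 after quantile normalization (5, 6 or 7 with 1 array also left out, an alternative chosen after seeing the data), 2 with array weights, 0 at an adjusted p under 0.01, and 0 to 2 with each array left out. The myclobutanil count of 0 became 1 at 14 days after quantile normalization and ran between 0 and 3 at 24 h with each array left out. The triadimefon effect at 14 days minus that at 24 h had 0 calls, 1 after quantile normalization or with all arrays shifted to 1 median, and 0 to 1 with each array left out. The cause was not tested, though fits of fewer arrays have fewer degrees of freedom. Over 22 alternatives, Dnajc3 at 24 h lost its call in 3, Pdia4 in 6 and Hyou1 at 14 days in 6. With the array number as a block the counts were again 2 for triadimefon at 24 h and 1 at 14 days; the labels do not pair the arrays.

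Over all 31042 probe sets the number called moved by over 1.5 times in these cases, given as the count in the fit used, then with only the groups compared, then at an adjusted p under 0.01: 2478, 491 and 944 for triadimefon at 24 h, 2628, 1250 and 1130 for myclobutanil at 24 h, 328, 190 and 102 between the compounds at 24 h, 246, 110 and 76 for myclobutanil at 14 days, 103, 11 and 27 between the compounds at 14 days, 74, 0 and 0 between the controls, and 1417, 843 and 396 for the myclobutanil effect over time. The stricter threshold left 600 of 2076 for triadimefon at 14 days and 1249 of 3931 for its effect over time. A fit without the 6 h arrays gave 209 between the compounds at 24 h, 160 for myclobutanil at 14 days, 68 between the compounds at 14 days and 31 between the controls. Quantile normalization gave 1117 between the compounds at 24 h (744 with triadimefon array 2 left out), 292 at 14 days and 114 between the controls. Array weights gave 757 between the compounds at 24 h and 25 between the controls. The controls also gave 360 with medians aligned, 46 with a variance trend, 167 with the file-name ending in the fit and 135 with ending 11 alone, which gave 35 between the compounds at 14 days. With each array left out, triadimefon gave 1159 to 3233 at 24 h and 1014 to 2185 at 14 days, and myclobutanil 1717 to 3154 and 73 to 408. Between the compounds these ranges were 159 to 457 at 24 h and 23 to 118 at 14 days, between the controls 0 to 1170, and for the effects over time 2253 to 5079 with triadimefon and 677 to 2426 with myclobutanil. Background and signal are not separated in these scores, which limits what low scores can show.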
